A study of Mus musculus with 18 samples.

Results

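The genes described here load and display peptides on MHC class I molecules. They are the heavy chains H2-K1 and H2-D1, the light chain B2m, the peptide transporter subunits Tap1 and Tap2, the loading factor Tapbp, the immunoproteasome subunits Psmb8, Psmb9 and Psmb10, and the proteasome activator subunit Psme1. They were chosen by name: a probe set belonged to a gene when the platform annotation gave that gene's symbol and no other. These 10 genes, out of 8251 genes with such a probe set, were covered by 18 probe sets out of 12422. Another 3 probe sets carried a member's symbol together with other symbols and were not used. Of the 18 probe sets, 16 were bright enough to be tested, and every one of the 10 genes had at least 1 of them.

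Expression had been measured in mouse heart with Affymetrix U74Av2 arrays, 1 array per sample. TNFTG mice carry a transgene for tumour necrosis factor alpha that is expressed in the heart, and their hearts were set against hearts of FVB mice. There were 6 TNFTG arrays of 3 weeks (3 female, 3 male), 3 TNFTG arrays of 13 weeks (all male), 3 TNFTG arrays of 40 weeks (all female) and 5 distinct FVB arrays of 3 weeks (2 female, 3 male), since FVB female columns 1 and 2 held identical values and counted as 1 sample. The labels place the TNFTG mice in compensated hypertrophy and in dilated failure without tying either stage to an age. They name no promoter for the transgene beyond its cardiac specificity, nor do they say whether the arrays of a group stand for separate animals. A p-value here therefore measures the spread between arrays, and that spread may be technical in part. No FVB heart of 13 or 40 weeks was analysed here, and age and sex cannot be told apart among the later TNFTG hearts.

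Class I molecules show cells of the immune system a sample of the proteins being broken down inside a cell. The proteasome cuts proteins into peptides, Tap1 and Tap2 pump the peptides into the endoplasmic reticulum, Tapbp holds an empty class I molecule at the pump, and the heavy chain leaves for the cell surface together with B2m once a peptide is bound. Cardiomyocytes are known for low class I display at rest, and interferons and TNF are known to raise the genes of this pathway in many cell types. Interferon gamma is also known to bring in Psmb8, Psmb9 and Psmb10, which take the places of Psmb5, Psmb6 and Psmb7 in newly built proteasomes.

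Promoter sequences are shown because both heavy chain genes, B2m and the neighbouring genes Tap1 and Psmb9 are among those whose signals are described below. They are the 250 bases before the annotated start in the RefSeq tables for GRCm38.p6, written 5′ to 3′ along the gene's own strand, and come from the C57BL/6J reference, not from FVB, whose MHC haplotype differs. The table held a window for 9 of the 10 genes, with none for Tap2 and 2 overlapping ones for H2-K1, of which the first is shown. Capitals in the first 3 sequences mark matches to the NF-kB consensus and to the core of interferon regulatory factor sites, AANNGAAA, each searched on both strands.
H2-K1 (chr17:34000348-34000597, minus strand): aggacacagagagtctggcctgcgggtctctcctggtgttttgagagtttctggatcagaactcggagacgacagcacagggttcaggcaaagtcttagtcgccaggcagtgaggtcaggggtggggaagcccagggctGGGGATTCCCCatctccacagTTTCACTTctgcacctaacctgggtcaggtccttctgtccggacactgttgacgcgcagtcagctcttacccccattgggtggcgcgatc
H2-D1 (chr17:35262844-35263093, plus strand): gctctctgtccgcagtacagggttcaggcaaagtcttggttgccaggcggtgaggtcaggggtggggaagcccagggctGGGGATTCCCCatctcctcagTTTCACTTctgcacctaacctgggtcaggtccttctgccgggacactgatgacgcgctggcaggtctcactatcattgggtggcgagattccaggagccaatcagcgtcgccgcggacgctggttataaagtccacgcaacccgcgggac
B2m (chr2:122147437-122147686, plus strand): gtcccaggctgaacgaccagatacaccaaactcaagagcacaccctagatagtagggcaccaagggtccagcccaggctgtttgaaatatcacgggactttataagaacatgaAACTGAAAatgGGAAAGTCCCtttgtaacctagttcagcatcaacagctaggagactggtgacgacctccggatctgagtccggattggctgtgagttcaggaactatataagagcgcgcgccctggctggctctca
In H2-K1 the NF-kB letters matched at 2 overlapping places, beginning 111 and 110 bases before the start, and the interferon regulatory factor core began 90 bases before it. Counted from the other annotated H2-K1 start, these matches lie at 125, 124 and 104 bases. H2-D1 held the same arrangement further upstream, at 171, 170 and 150 bases. Its NF-kB letters lie inside a run of 47 bases identical to the H2-K1 window, and its core lies just after that run. B2m held 1 match of each kind in the other order, the core at 137 bases and the NF-kB letters at 126 bases. The NF-kB letters occur in 7.25% and the core in 21.3% of 32851 promoter windows of this length, and both together in 1.11%. Of the 9 genes with a window, H2-K1, H2-D1 and B2m held both. A match is a description of letters and not of a bound site.

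Tap1 and Psmb9 lie head to head, and their windows overlap by 225 bases on opposite strands. In human cells this stretch is known as a promoter that serves both genes. The Tap1 window is given here with the shared bases in capitals.
Tap1 (chr17:34187306-34187555, plus strand): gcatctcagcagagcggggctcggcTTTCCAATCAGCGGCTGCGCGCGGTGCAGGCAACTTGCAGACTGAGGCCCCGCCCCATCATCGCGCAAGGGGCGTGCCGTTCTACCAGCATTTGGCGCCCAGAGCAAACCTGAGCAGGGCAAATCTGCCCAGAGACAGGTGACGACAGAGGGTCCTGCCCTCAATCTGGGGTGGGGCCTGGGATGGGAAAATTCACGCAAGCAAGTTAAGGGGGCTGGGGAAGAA
Neither motif was found in this window or in those of Psmb9, Tapbp, Psmb8, Psmb10 and Psme1. The Psmb8 window held 1 match to the gamma-activated site TTCNNNGAA, a letter pattern bound by STAT factors, at 97 bases before the start. That pattern occurs in 7.02% of all windows. H2-K1, H2-D1, Tap1, Tap2, Tapbp, Psmb8 and Psmb9 lie on chromosome 17, B2m on chromosome 2, Psmb10 on chromosome 8 and Psme1 on chromosome 14.

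Values are probe set signals on a linear scale, and log2 differences were fitted with limma after a floor at a signal of 44.9. A gene was called at a Benjamini-Hochberg adjusted p under 0.05 over 7453 probe sets. The transgene product served as the check of the labels: Tnf averaged 9404 ± 2170 in TNFTG hearts of 3 weeks (SD, n = 6) and 43.9 ± 45.8 in FVB hearts (SD, n = 5), of which 4 lay at the floor. Tnf was 8692 ± 1865 at 13 weeks and 10260 ± 1678 at 40 weeks (SD, n = 3 each). Some FVB arrays stand apart. FVB female 1 correlated with the other arrays at a Spearman rho of 0.767 to 0.85, against 0.953 to 0.962 among the other 4 FVB arrays. The arrays labelled FVB male 1 and FVB male 2 carried Xist signals of 1381 and 2706, which goes against the label, while the 6 TNFTG male arrays lay between 7.8 and 34.7. The ratio of the 3 prime to the 5 prime Actb probe set, a sign of RNA integrity, was 1.26 ± 0.10 in TNFTG hearts of 3 weeks (SD, n = 6) and 1.71 ± 0.26 in FVB hearts (SD, n = 5), an exact permutation test giving p = 0.0087. The part of these differences in the results was not tested. The counts and differences of the 10 genes and the list counts at 3 weeks are also given without FVB female 1 and FVB males 1 and 2, hereafter the 3 doubted FVB arrays. The fit then has 1 FVB female and 1 FVB male, and takes their spread from the remaining groups.

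At 3 weeks, all 10 genes rose in TNFTG hearts relative to FVB hearts, and 9 of them, all but Psme1, had every TNFTG array above every FVB array. Calls in the same direction made up 24.7% of all probe sets tested, and 14.5% of all probe sets had every TNFTG array above every FVB array. The median log2 difference of the 10 genes was 2.16, against -0.01 for all probe sets tested. Psmb9 rose most, 16.4-fold, and Psme1 least, 1.45-fold. Leaving out FVB female 1, FVB males 1 and 2, or these 3 arrays together left 9 genes called, with medians of 2.12, 2.52 and 2.40. Without the 3 arrays the log2 differences were 2.73 for H2-K1, 2.55 for H2-D1, 2.26 for B2m, 2.80 for Tap1, 1.62 for Tap2, 1.67 for Tapbp, 3.47 for Psmb8 and 1.65 for Psmb10, and those of Psmb9 and Psme1 stand with these genes.

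**Figure D1:**
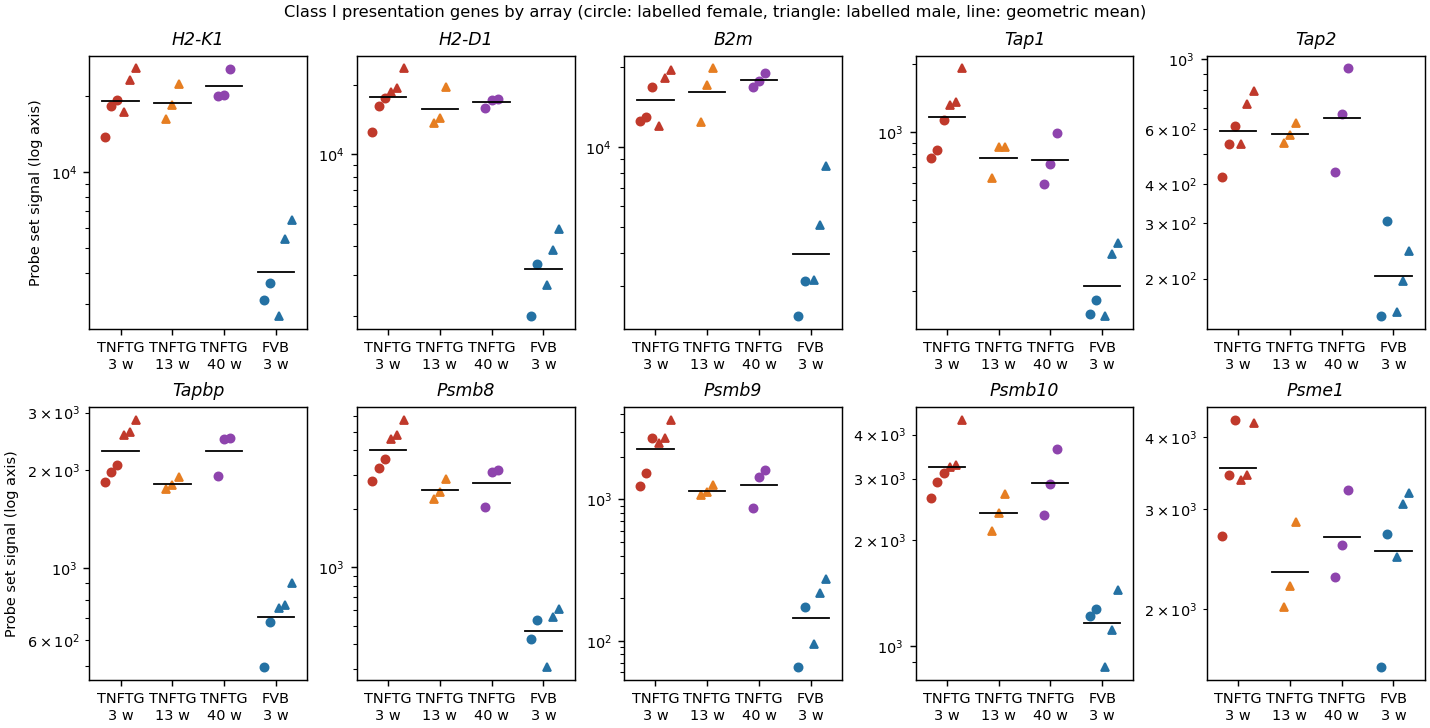
Signal of each gene's brightest probe set on a log axis, 1 panel per gene, in TNFTG hearts of 3, 13 and 40 weeks and in FVB hearts of 3 weeks. Circles are arrays labelled female, triangles arrays labelled male, and lines geometric means. In 9 panels all 12 TNFTG arrays lie above the 5 FVB arrays, and in the Psme1 panel the groups overlap.

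The heavy chain H2-K1, read by probe set 93120_f_at, had a lowest signal of 13811, a median of 18794 and a highest of 25726 on TNFTG arrays of 3 weeks, against 3646 and 3113 on FVB female arrays and 5446, 6486 and 2692 on FVB male arrays. Every TNFTG array was at least 2.13 times as bright as the brightest FVB array, and the 2 FVB males with Xist signal were the brightest of the FVB group. The difference was 2.29 on the log2 scale (SE 0.21, limma adjusted p = 2.9e-07), a 4.9-fold rise.

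H2-D1, the other classical heavy chain on this list, read by 101886_f_at, had a lowest signal of 12472, a median of 18074 and a highest of 23517 in TNFTG hearts of 3 weeks, against 1996 and 3348 in FVB females and 3847, 4749 and 2722 in FVB males. The groups lay well apart, the lowest TNFTG array standing 2.63 times above the highest FVB array. H2-D1 rose by 2.52 on the log2 scale (SE 0.18, limma adjusted p = 1.8e-08). Both probe sets carry the suffix that Affymetrix gives to probes shared within a gene family, so signal of H2-K1, H2-D1 and other class I chains cannot be fully told apart.

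B2m, the invariant light chain without which class I molecules do not reach the surface, ranged from 12022 to 19460 with a median of 14880 in TNFTG hearts of 3 weeks, against 2302 and 3125 in FVB females and 5076, 8458 and 3144 in FVB males. FVB male 2 was well above the other FVB hearts, yet still below the lowest TNFTG heart. The log2 difference of B2m was 2.02 (SE 0.23, limma adjusted p = 2.9e-06), and it was 2.37 without FVB males 1 and 2.

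Tap1, a subunit of the peptide pump, ranged from 768 to 1912 with a median of 1229 in TNFTG hearts of 3 weeks, against 158 and 182 in FVB females and 323, 289 and 154 in FVB males. The lowest TNFTG array was 2.38 times the highest FVB array. Tap1 rose 5.74-fold, a log2 difference of 2.52 (SE 0.21, limma adjusted p = 1e-07).

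Its partner subunit Tap2 had a lowest signal of 421, a median of 575 and a highest of 794 in TNFTG hearts of 3 weeks, against 306 and 152 in FVB females and 157, 197 and 245 in FVB males. The gap between the groups was narrow here, with FVB female 1 the highest of the FVB arrays. Tap2 rose 2.87-fold, a log2 difference of 1.52 (SE 0.22, limma adjusted p = 4.3e-05), and 1.78 without FVB female 1.

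Tapbp, the bridge between the pump and the empty class I molecule, ranged from 1842 to 2856 with a median of 2316 in TNFTG hearts of 3 weeks, against 495 and 683 in FVB females and 897, 769 and 756 in FVB males. The spread within each group was small next to the gap between them. Its log2 difference was 1.74 (SE 0.13, limma adjusted p = 2.2e-08), a 3.35-fold rise.

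Among the immunoproteasome subunits, Psmb8 ranged from 2792 to 5768 with a median of 4092 in TNFTG hearts of 3 weeks, against 534 and 428 in FVB females and 551, 606 and 304 in FVB males. The lowest TNFTG array was 4.61 times the highest FVB array. The difference was 3.09 on the log2 scale (SE 0.19, limma adjusted p = 2.8e-09).

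Psmb9, which shares its upstream stretch with Tap1, ranged from 1254 to 3677 with a median of 2619 in TNFTG hearts of 3 weeks, against 174 and 64.8 in FVB females and 219, 274 and 94.7 in FVB males. The lowest TNFTG array was 4.57 times the highest FVB array, and FVB female 3 and FVB male 3 were the lowest of all. The difference was 4.04 on the log2 scale (SE 0.31, limma adjusted p = 3.8e-08), and it was 4.85 without the 3 doubted FVB arrays.

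Psmb10 ranged from 2633 to 4415 with a median of 3179 in TNFTG hearts of 3 weeks, against 1272 and 1219 in FVB females and 1112, 1446 and 871 in FVB males. The lowest TNFTG array was 1.82 times the highest FVB array. Psmb10 rose 2.73-fold, a log2 difference of 1.45 (SE 0.16, limma adjusted p = 2.5e-06).

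Psme1 encodes a subunit of the ring-shaped activator that opens the proteasome and is induced by interferon gamma. It had a lowest signal of 2689, a median of 3437 and a highest of 4299 in TNFTG hearts of 3 weeks, against 1583 and 2707 in FVB females and 2473, 3200 and 3054 in FVB males. The groups overlapped at their edges, since TNFTG female 1 lay inside the FVB range while the other 5 TNFTG arrays exceeded every FVB array. The difference was 0.53 on the log2 scale (SE 0.18, limma adjusted p = 0.023), and this call rested on single arrays and settings. With arrays scaled to a common median the adjusted p was 0.0569, and with array weights it was 0.0701. The difference was 0.34 with adjusted p = 0.149 without FVB female 1, and the adjusted p was 0.0561 without FVB male 1, 0.0621 without TNFTG female 3 and 0.0541 without TNFTG male 2. It was 0.30 with adjusted p = 0.302 without the 3 doubted FVB arrays.

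**Figure D2:**
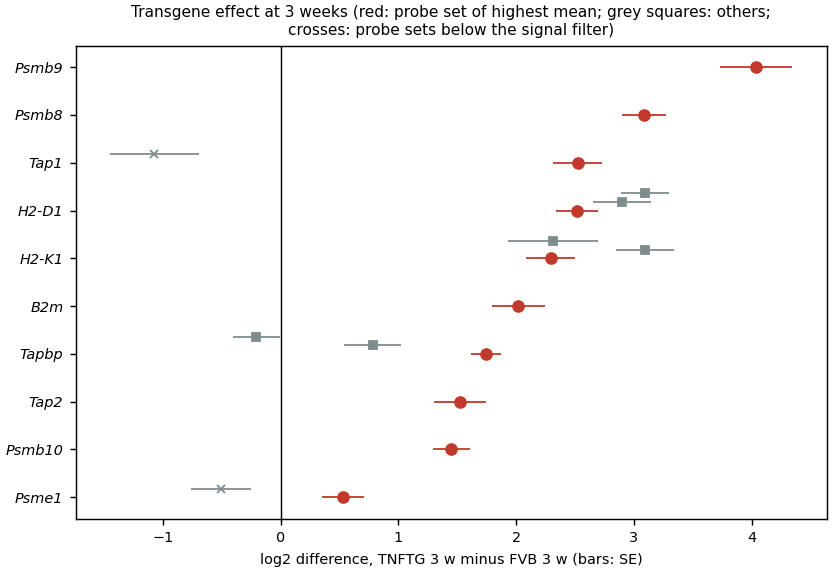
Log2 difference between TNFTG and FVB hearts of 3 weeks for each gene, with bars of 1 SE. Red points are the brightest probe set of a gene, grey squares its other tested probe sets and grey crosses probe sets below the signal filter. Psmb9 lies at 4.04 and Psme1 at 0.53, and the 2 crosses and 1 square lie below 0.

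Several genes had further probe sets, and 15 of the 16 tested ones were called higher and none lower. H2-K1 was also read by 97125_f_at, with a log2 difference of 3.09 (SE 0.25), and by 97700_at, with 2.32 (SE 0.38) and overlapping groups. H2-D1 was read by 97540_f_at and 97541_f_at, with 2.90 and 3.09 (SE 0.25 and 0.21). These heavy chain probe sets all moved in the direction already given.

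Tapbp was less uniform. Probe set 102689_at averaged 809 ± 323 in TNFTG hearts of 3 weeks (SD, n = 6) and 442 ± 116 in FVB hearts (SD, n = 5), a log2 difference of 0.78 with limma adjusted p = 0.015. Probe set 162104_f_at averaged 549.8 ± 88.4 in TNFTG hearts and 652 ± 380 in FVB hearts, a log2 difference of -0.21 that was not called (limma adjusted p = 0.42). The 3 probe sets of this gene thus disagree in size. The dimmest had a negative sign, with FVB female 1 at 1328 against 545 in FVB female 3 and 464, 468 and 456 in FVB males. Its difference without FVB female 1 is not given here.

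The 2 probe sets below the filter on dim signals had negative values. Tap1 162278_r_at averaged 60.2 ± 23.5 in TNFTG hearts of 3 weeks, with 2 of 6 arrays at the floor, and 131 ± 81.4 in FVB hearts. Psme1 161293_r_at lay at the floor on all 6 TNFTG arrays and on 4 of 5 FVB arrays. With all probe sets of a gene averaged, the log2 difference became 0.73 for Tap1, 0.77 for Tapbp and 0.01 for Psme1, and the Psme1 call was lost.

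The 3 catalytic subunits were also set against the subunits they replace, first by the level of those subunits and then as a ratio within each array. Psmb5 averaged 2313 ± 408 in TNFTG hearts of 3 weeks and 2464 ± 560 in FVB hearts (SD, n = 6 and 5), a log2 difference of -0.04 (SE 0.17). Psmb6 averaged 2333 ± 396 and Psmb7 2172 ± 504 in TNFTG hearts, against 2286 ± 213 and 2623 ± 432 in FVB hearts, with log2 differences of 0.03 and -0.26. None of the 3 was called in either direction, with limma adjusted p of 0.86, 0.85 and 0.19. In males alone Psmb7, the partner of Psmb10, was called lower, with a log2 difference of -0.62 (SE 0.21, limma adjusted p = 0.036).

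Relative to the mean of the FVB arrays, the log2 ratio of Psmb8 to Psmb5 was 3.16 ± 0.56 in TNFTG hearts of 3 weeks (SD, n = 6), and FVB arrays lay from -0.68 to 0.78 around their mean of 0. The ratio of Psmb9 to Psmb6 was 3.95 ± 0.74, with FVB arrays from -1.12 to 0.81. The ratio of Psmb10 to Psmb7 was 1.76 ± 0.56, with FVB arrays from -0.75 to 0.42. The ratios did not overlap between the genotypes for any of the 3 pairs. With no replaced subunit called over both sexes, the ratios largely repeat the rises of Psmb8, Psmb9 and Psmb10 already given. They and their test are not separate support for those rises. A two-sided exact permutation test over the arrays gave p = 0.004329 for each pair, the smallest that 462 splits allow, and the same value after adjustment over the 3 pairs. The test does not go below 0.0714 without the 3 doubted FVB arrays, where the differences were 3.66, 4.89 and 2.07.

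The ratios were also high at the later ages. Psmb8 to Psmb5 stood at 2.61 ± 0.25 at 13 weeks and 2.94 ± 0.58 at 40 weeks, Psmb9 to Psmb6 at 3.19 ± 0.11 and 3.18 ± 0.58, and Psmb10 to Psmb7 at 1.42 ± 0.20 and 1.86 ± 0.59 (SD, n = 3 each), all relative to the FVB mean at 3 weeks. The lowest of these 18 values exceeded the highest FVB value of its pair.

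**Figure D3:**
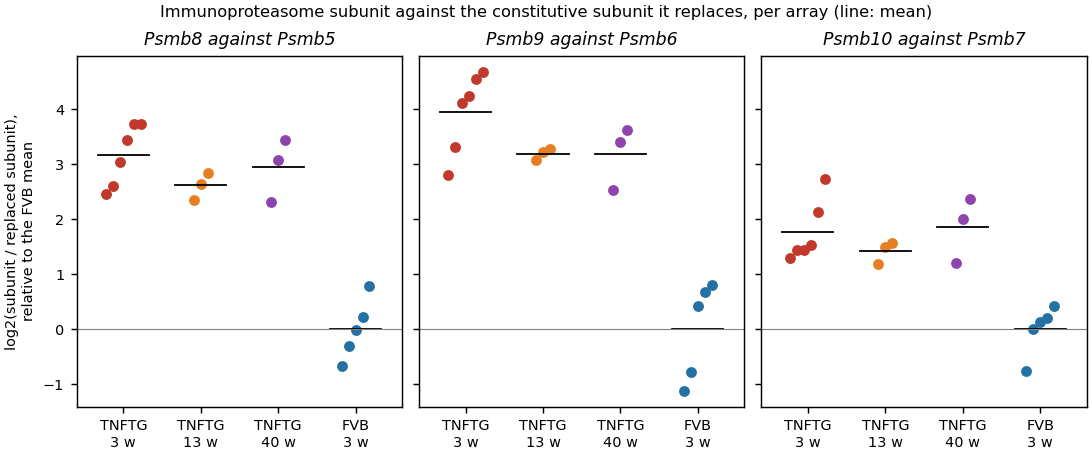
Log2 ratio of each immunoproteasome subunit to the constitutive subunit whose place it takes, per array and relative to the mean of the FVB arrays, in TNFTG hearts of 3, 13 and 40 weeks and FVB hearts of 3 weeks. Points are arrays and lines means. TNFTG means of 3 weeks are 3.16, 3.95 and 1.76, and FVB arrays scatter around 0.

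The sexes were compared within the 3-week hearts as labelled. In females all 10 genes were called higher, against 19.4% of all probe sets, with a median log2 difference of 2.36. In males 9 genes were called higher, against 16.9% of all probe sets, with a median of 2.02. The genes thus moved the same way in both labelled sexes. Psme1 was the exception in males, with a log2 difference of 0.34 (limma adjusted p = 0.31). In females the Psme1 call at 0.72 (adjusted p = 0.046) became 0.33 with adjusted p = 0.448 without FVB female 1, and Tap2 at 1.26 became 0.76 with adjusted p = 0.107 without FVB female 3. No gene was called for a sex difference of the effect, where the female minus male differences ran from -0.69 for Psmb8 to 0.72 for B2m, and 0 of 7453 probe sets (0%) were called by limma, with 1229 at an unadjusted p under 0.05. Without FVB males 1 and 2 the male median was 2.64 and the median difference between the sexes -0.51, against 0.01 with them, and no member was called, where the 1 FVB male left is assumed to vary like the other groups.

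At later ages the genes other than Psme1 stayed above the FVB range. All 12 TNFTG arrays of any age exceeded every FVB array for 9 of the 10 genes, as was the case for 10.3% of all probe sets tested. For Psme1 this held for 5 of 6 arrays at 3 weeks, 0 of 3 at 13 weeks and 1 of 3 at 40 weeks. No FVB heart of the later ages was analysed here, so these levels are set against FVB hearts of 3 weeks alone.

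In males, all 10 genes had lower mean signals at 13 weeks than at 3 weeks, with a median log2 difference of -0.58 against -0.01 for all probe sets tested. None was called by limma, where 0.523% of all probe sets were called, and 6 of the 10 had an unadjusted p under 0.05, against 8.61% of all probe sets. Among the cell type markers, Gzmb was called lower at 13 weeks, with a log2 difference of -2.59 (SE 0.44, limma adjusted p = 0.011). It is the only tested marker of the cytotoxic list, and no marker of another list was called. List medians went both ways. They were -0.49 for leukocyte, -0.33 for T cell, -0.41 for neutrophil, -0.32 for fibroblast and -0.10 for thymus markers. Macrophage markers had 0.08, B cell markers 0.31, endothelial markers 0.16 and cardiomyocyte markers 0.37. The part of these cell types in the class I values was not tested. Psmb9 had signals of 1132, 1259 and 1078 in TNFTG males of 13 weeks, against 2503, 3677 and 2745 in TNFTG males of 3 weeks. Psmb9 thus differed by -1.35 on the log2 scale (SE 0.41, limma adjusted p = 0.23). It passed the threshold in 1 of 31 alternatives, with only the groups compared (limma adjusted p = 0.0164).

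Psmb8 had 2847, 2435 and 2251 in TNFTG males of 13 weeks and 4563, 5768 and 4809 in those of 3 weeks, a log2 difference of -1.01 (SE 0.25, limma adjusted p = 0.098). It passed the threshold in 4 of 31 alternatives. Among these were quantile normalisation (limma adjusted p = 0.0494), only the groups compared (0.0498) and the fit without FVB male 3 (0.0319), although that array is in neither group. Tap1 had 859, 859 and 626 at 13 weeks and 1323, 1363 and 1912 at 3 weeks, a log2 difference of -0.97 (SE 0.28, limma adjusted p = 0.18). The brightest probe set of H2-K1 had 22334, 16253 and 18483 at 13 weeks and 25726, 23083 and 17309 at 3 weeks, a log2 difference of -0.21 (SE 0.28). H2-K1 97700_at, its probe set without the family suffix, had 609.8, 733.8 and 642 at 13 weeks and 1700, 2318 and 1429 at 3 weeks, a log2 difference of -1.43 (SE 0.51, limma adjusted p = 0.35), so the probe sets of this gene differ in size here. The log2 difference of B2m was -0.01 (SE 0.30).

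In females, 6 genes had higher and 4 lower mean signals at 40 weeks than at 3 weeks, from -0.46 for Psmb9 to 0.37 for H2-K1, with a median of 0.08. None was called by limma, against 0.671% of all probe sets, and none had an unadjusted p under 0.05, against 9.1% of all probe sets. Psmb9 had 875, 1448 and 1610 in TNFTG females of 40 weeks and 1536, 1254 and 2735 in those of 3 weeks, with overlapping groups. H2-K1 had 20052, 20265 and 25679 at 40 weeks and 13811, 18319 and 19270 at 3 weeks, a log2 difference of 0.37 (SE 0.28) that was not called.

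The change to 40 weeks in females minus the change to 13 weeks in males was positive for all 10 genes, from 0.30 for Psme1 to 0.89 for Psmb9. None of these was called, as was the case for 0% of all probe sets, where 214 had an unadjusted p under 0.05. Of the brightest probe sets of the 10 genes, 2 did so (Psmb8 and Tapbp). Over all tested probe sets of these genes it was 3, with H2-K1 97700_at at 2.06. The 2 changes share neither arrays nor sex, and age and sex cannot be told apart in them.

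**Figure D4:**
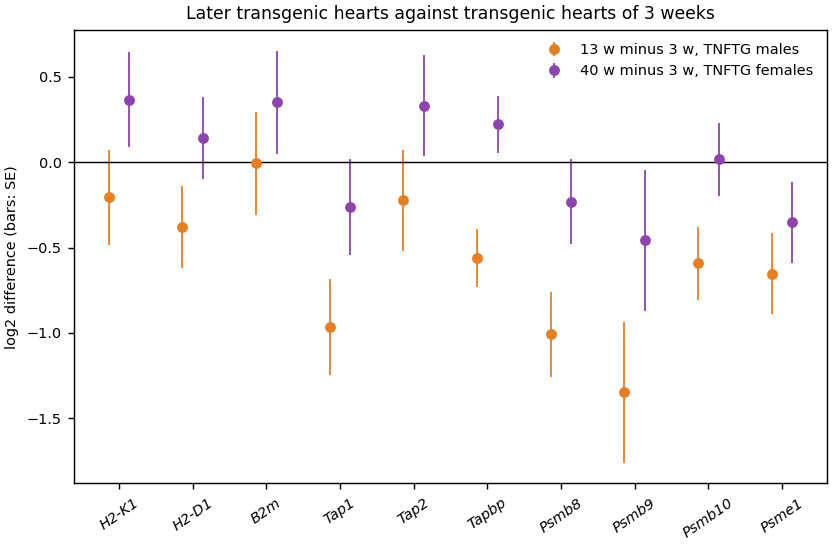
Log2 difference of TNFTG hearts of 13 weeks (males, orange) and 40 weeks (females, purple) from TNFTG hearts of 3 weeks of the same labelled sex, with bars of 1 SE. All orange points lie below 0, down to -1.35 for Psmb9, and the purple points run from -0.46 to 0.37.

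Ordered by mean log2 signal, FVB hearts stood last for every gene but Psme1. The groups of 3 weeks hold both labelled sexes, that of 13 weeks males and that of 40 weeks females. This order thus mixes age with sex. Tapbp had 1750, 1794 and 1907 at 13 weeks and 2499, 2485 and 1922 at 40 weeks. These neighbours were just separate, while they overlapped in Tapbp probe set 102689_at. The share of all probe sets separated in this way is not given here. No other neighbouring TNFTG groups were separate in any of the 10 genes. The order was 3, 40 and 13 weeks for H2-D1, Tapbp, Psmb8, Psmb9 and Psmb10, and 40, 3 and 13 weeks for H2-K1 and Tap2. For B2m it was 40, 13 and 3 weeks and for Tap1 3, 13 and 40 weeks. Among males alone, B2m at 13 weeks differed from 3 weeks by -0.01 on the log2 scale. Psme1 ran from 3 weeks over 40 weeks and FVB to 13 weeks, with every pair of neighbours overlapping.

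Other genes of the pathway were taken from lists by role. Of the other class I and class I-like chains, 7 were tested, of which 6 rose and 1 fell at 3 weeks, with a median of 1.16, where 24.7% of all probe sets tested were called higher and 21.9% lower. H2-M2 averaged 2735 ± 292 in TNFTG hearts of 3 weeks and 235 ± 144 in FVB hearts (SD, n = 6 and 5), a log2 difference of 3.62. H2-Q4 averaged 3605 ± 1376 in TNFTG hearts and 624.6 ± 92.9 in FVB hearts, a log2 difference of 2.45. H2-M3, which presents formylated peptides, rose by 1.71 and the lipid-presenting Cd1d1 by 1.16. The chain that fell was H2-Q10, with -0.65 and overlapping groups (limma adjusted p = 0.035), a secreted chain known mainly from liver, and it was chosen for naming after its value was seen. In this list 6 rose and none fell without the 3 doubted FVB arrays.

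The peptide loading and trimming list had 6 tested genes, of which 1 rose and 1 fell, with a median of 0.04. Pdia3, a disulphide isomerase of the loading complex, averaged 2128 ± 380 in TNFTG hearts of 3 weeks and 1104 ± 326 in FVB hearts, a log2 difference of 1.06 (limma adjusted p = 0.0016). Canx, the chaperone of newly made heavy chains, had -0.72 with overlapping groups (adjusted p = 0.0098). The peptidases Tpp2 and Blmh had 0.24 and -0.17 and were not called. No gene of this list was called without the 3 doubted FVB arrays.

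Most of the remaining proteasome genes were not called at 3 weeks, where 24.7% of all probe sets tested were called higher and 21.9% lower. In the list of other activators, assembly factors and replaced subunits, 0 of 6 rose and 1 fell, Psme4, with -0.57 (limma adjusted p = 0.031). Of 29 other tested genes listed as constitutive proteasome subunits, 5 rose and none fell, with a median of 0.06. Those named by the smallest p were Psmd10 with 1.26, Psma5 with 0.63, Psmd8 with 0.57 and Psma3 with 0.55, and the last was Psmd14 with 0.38. Without the 3 doubted FVB arrays Psme4 was not called, and of the 29 subunits Psma5, Psmd10 and Psmd14 rose and Psmc3 fell, with a median of -0.12.

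Of 16 tested regulators of class I genes, 13 rose and 2 fell, with a median of 1.30. Nfkbia, the NF-kB inhibitor that NF-kB itself induces, averaged 3669 ± 508 in TNFTG hearts of 3 weeks and 1126 ± 388 in FVB hearts (SD, n = 6 and 5), a log2 difference of 1.86. Irf8, an interferon regulatory factor of myeloid cells, averaged 1603 ± 321 in TNFTG hearts and 246 ± 82.9 in FVB hearts, a log2 difference of 2.69. The NF-kB subunit Relb rose by 2.06 and the type I interferon receptor chain Ifnar1 by 1.71. Irf1, a direct activator of class I and immunoproteasome genes that lies outside the naming rule, rose by 1.58 (SE 0.21, limma adjusted p = 2.3e-05). The genes that fell were the interferon gamma receptor chain Ifngr2, with -0.55, and the MHC promoter factor Rfxank, with -0.74. Without the 3 doubted FVB arrays 13 rose and 1, Rfxank, fell. Irf1, Ifngr2, Rfxank, Psmd14 and Psmc3 were named after their values were seen. Ifng itself was at the floor on every TNFTG array and on 4 of 5 FVB arrays, and it was not tested.

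**Figure D5:**
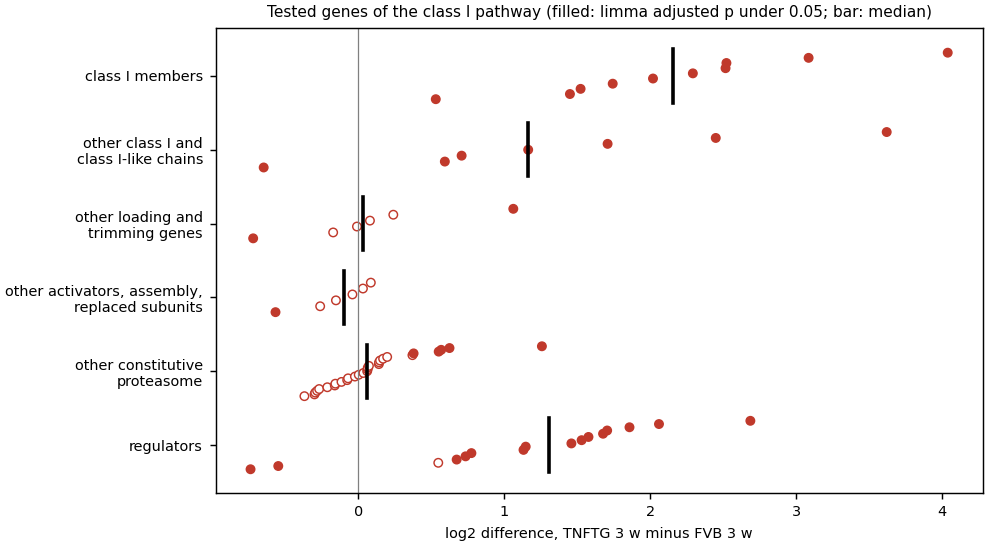
Log2 difference between TNFTG and FVB hearts of 3 weeks for every tested gene of the class I lists, 1 row per list. Filled points have a limma adjusted p under 0.05, open points do not, and bars are medians. The medians are 2.16 for the 10 genes described here, 1.16 for other class I chains, 1.30 for regulators and 0.06 for genes listed as other constitutive proteasome subunits.

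Markers of cell types went both ways at 3 weeks, where 24.7% of all probe sets tested were called higher and 21.9% lower. All 5 leukocyte markers rose, and their summed signal was 10789 to 15005 in TNFTG hearts of 3 weeks, 10299 to 10990 at 13 weeks and 8481 to 11435 at 40 weeks, against 1060 to 1697 in FVB hearts. Of 8 tested macrophage markers 7 rose and 1, the Fc receptor Fcgr1, fell, and the sum over 9 markers was 26730 to 32005, 28104 to 40323 and 28689 to 37816 at the 3 ages, against 4596 to 7355 in FVB hearts. All 3 tested T cell markers rose, with sums over 6 markers of 779 to 1951 in TNFTG hearts of 3 weeks, 1050 to 1321 at 13 weeks and 797 to 1644 at 40 weeks, against 135 to 698 in FVB hearts. In females 0 of the 3 T cell markers were called, with a median of 0.86, and in males 3 of 3 were called higher, with a median of 2.10, while no marker was called for a sex difference. None of these markers was at the floor on every array of a group.

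All 7 cardiomyocyte markers fell, and their sum was 85700 to 168040 in TNFTG hearts of 3 weeks, 99297 to 149650 at 13 weeks and 127740 to 172390 at 40 weeks, against 159560 to 263020 in FVB hearts, so markers of heart muscle were present in every group. Of the endothelial markers 0 of 7 rose and 3 fell (Pecam1, Tek and Flt1), and of the 5 fibroblast markers 2 rose (Col1a1 and Postn) and 1 fell (Dcn). The 3 tested neutrophil markers rose (S100a8, S100a9 and Camp), as did 2 of 4 B cell markers (Cd79b and Blnk) and the only tested cytotoxic marker, Gzmb. By labelled sex Gzmb was called in males, with 2.84, and not in females, with 0.87. Of 3 tested thymus markers Rag1 fell and Cd1d1, which the list of class I-like chains also holds, rose. Without the 3 doubted FVB arrays the counts were the same for the leukocyte, macrophage, T cell, B cell, neutrophil, cytotoxic and cardiomyocyte lists. The calls of Pecam1, Rag1 and Col1a1 were then lost, and the fibroblast marker Pdgfra fell. Genes of these marker lists are named after their values were seen. In bulk tissue, fewer cells of a type and less RNA per cell cannot be told apart. The part of these cell types in the class I signal was not tested.

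The genes whose pattern over the 6 groups of genotype, age and labelled sex lay closest to the mean pattern of the 10 genes were found among 5690 other tested genes by the root mean square difference of centred log2 group means. They were Ly86 at 0.087, Trpv2 at 0.097, Tgfbi at 0.108, Mthfd2 at 0.109 and Prkcb at 0.129, with a median of 0.992 over all candidates. Their log2 differences at 3 weeks ran from 2.07 for Mthfd2 to 2.20 for Prkcb. The members themselves lay between 0.189 for Tapbp and 0.834 for Psme1 from their own mean. The 5 genes were picked as the closest of 5690, while the members were fixed by name. Their smaller distances therefore follow from the choice. Without the 3 doubted FVB arrays Tgfbi alone stayed among the closest 5, with Rassf5, H2-M3, Gmip and Gusb, while Mthfd2 stood at place 282, so this choice of genes rests on those arrays.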

How the data were processed

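The authors deposited 1 linear intensity (signal) per probe set and array, already at a common level, as the values show: array means, taken without values below the 2nd or above the 98th percentile, ran from 494.4 to 496.7. A record of the software and scaling settings was not given in the sources used here. Groups, ages and sexes came from the sample titles. FVB female columns 1 and 2 are identical in every value and entered once, so 18 columns gave 17 distinct arrays.

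Signals under the 25th percentile of pooled values, 44.9, were set to it before taking log2, since values below it have no order. Of 12422 probe sets without controls, the brightest 60% (7453) were tested two-sided with the lmFit and eBayes functions of limma 3.58.1, run in R 4.3.3, with 1 mean per group in a single fit of all arrays. There were 11 residual degrees of freedom and a prior worth 4.89. Benjamini-Hochberg adjustment ran over all probe sets tested, with calls at 0.05. For the transgene effect at 3 weeks the female and male differences were averaged. A gene is read by its probe set of highest mean signal. Ratios between subunits were tested by exact permutation in R and the Actb ratio by exact permutation with scipy 1.17.1, both two-sided. The number of arrays limits the precision.

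Named genes are the 10 members, Tnf, up to 4 genes of smallest p per list of the class I pathway, Psmb5, Psmb6 and Psmb7, and the 5 genes of most similar pattern. The members, lists, tests and alternatives were chosen with earlier results of these data known. Promoter motifs were chosen after the sequences were seen. The fit was tested on simulated data. Alternatives changed the scaling, floor, filter, variance model, samples fitted, gene summary, the replicate number as a block, and single arrays.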

Additional observations from a re-analysis of the deposited data

How the results depend on the processing

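Of 50 results for single genes, 43 kept their direction and side of the threshold under every alternative, and 1525 of 1560 values did so. The 7 others were Psme1 at 3 weeks, Psme1, Tap1, Tap2 and Tapbp in females, and Psmb8 and Psmb9 at 13 weeks. Psme1 in females turned to -0.14 (limma adjusted p = 0.577) with all probe sets of a gene averaged. This brings in a probe set that lay at the floor on every female array but FVB female 1, where it had 182. The count of genes called at 3 weeks stayed at 9 to 10 without single arrays, at 9 to 10 in females and at 9 in males. In females it was 7 with all probe sets of a gene averaged, 8 with array weights and 8 with only the groups compared. At 13 weeks it was 0, and 1 after quantile normalisation, 2 with only the groups compared and 1 without the 3 doubted FVB arrays, with 0 to 1 when single arrays were left out. At 40 weeks, for the sex difference and for the difference between age changes it was 0 throughout. Without the 3 doubted FVB arrays the subunit ratios differed by 3.66, 4.89 and 2.07, where 2 FVB arrays are left and adjusted p = 0.0714 is the smallest the exact test gives. Leaving out single arrays gave 2.99 to 3.36 for Psmb8 against Psmb5, 3.67 to 4.18 for Psmb9 against Psmb6 and 1.56 to 1.86 for Psmb10 against Psmb7. Same-numbered arrays had residual correlations from -0.189 to 0.241. These come from groups of 2 or 3 arrays and were not set against differently numbered arrays. They therefore cannot decide whether the numbers pair the arrays. With a replicate block, 10 genes were called at 3 weeks, 10 in females, 9 in males and 0 in each other comparison, and the block changed no other call.

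Counts over all probe sets moved more. In females 2587 calls became 699 with array weights, 1013 with only the groups compared, 1445 without FVB female 1 and 1361 without the 3 doubted arrays, and in males 2211 became 1399 without FVB males 1 and 2. At 13 weeks 39 calls ranged from 14 to 80 and at 40 weeks 50 ranged from 28 to 803, the highest with array weights in both. For the sex difference 0 calls became 1490 without FVB female 3, 155 with both identical columns kept, 92 with no filter, 17 with a common median, and at most 6 in the others. For the difference between age changes array weights gave 1. Wherever 1 FVB array of a sex was left, it is assumed to vary like the other groups. The pathway and marker lists without the 3 doubted arrays were added after seeing the data. Shared probes within the class I family, and 1 probe set at the floor, limit what single genes can show. The causes were not tested.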

Other observations

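Within the TNFTG hearts of 3 weeks, the male mean signal lay above the female mean for all 10 class I genes. The share of all probe sets with this order is not given here, so the count cannot be read as particular to these genes. No test of these means was planned, and sex-specific differences from FVB rest on the arrays whose Xist signal goes against their label. Among the FVB hearts, the array labelled male 2 was the highest for 7 of the 10 genes. The array labelled FVB male 1 was the highest for 2 and FVB female 1 for 1. For these 10 genes the highest FVB signals thus fell mostly on a single array. The share of all probe sets with their highest FVB signal on that array is not given here. None of 20 pairs of a gene and a group of 4 or more arrays held an array that stood far from the rest of its group.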
